A study of Mus musculus with 6 samples.

Results

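Moxd1, Slc13a2, Obp2a, Capn8, Serpina12 and Upp2 are 6 of the 19938 genes measured in the livers of male C57BL/6 mice on a pair of opposed sterol diets. They were chosen by their own array values, each gene being about 2-fold or more lower on the diet that limits cholesterol than on the diet that supplies it. Their changes are therefore given as a description, without a test. All 6 were found, each on a single probe set annotated to that gene alone, and all 6 remained when the dimmest 33.3% of genes were left out. As a group they do not share 1 role. Obp2a and Serpina12 encode secreted proteins and Slc13a2 a transporter of the cell surface, whereas Moxd1 encodes an enzyme of the endoplasmic reticulum and Capn8 and Upp2 encode enzymes of the cytosol.

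The arrays come from mice aged 6 weeks with 1 week of acclimatization on chow. The lovastatin/ezetimibe group was fed chow with 100 mg lovastatin and 21 mg ezetimibe per 100 g (3 arrays, LE1 to LE3). The cholesterol group was fed chow with 1% cholesterol by weight (3 arrays, CH1 to CH3). Lovastatin inhibits HMG-CoA reductase, which makes mevalonate, and ezetimibe keeps the gut from absorbing cholesterol, so the first diet limits sterol and the second supplies it. A chow group named in the labels was not analysed here, and nothing below sets a diet against chow. The labels call the arrays biological replicates and do not tie them to single animals, so the spread between arrays may be partly technical. In whole liver, fewer cells of a type and less RNA per cell cannot be told apart.

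A liver on excess sterol turns part of it into oxysterols, which activate the liver X receptors (LXR), transcription factors that raise sterol export and fatty acid synthesis. A liver short of sterol releases the SREBP transcription factors instead, which raise sterol synthesis and uptake. The liver of male mice also carries a set of male-biased genes that depend on the pulsed release of growth hormone through the factor STAT5b, and Moxd1 is among them. Obp2a was also placed in the list of such genes used here.

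The tissue label was borne out by its markers. The 10 hepatocyte markers, among them albumin (Alb) and transthyretin (Ttr), had summed intensities of 174300 to 178010 on the lovastatin/ezetimibe arrays and 175280 to 176870 on the cholesterol arrays. None of these 10 passed limma's test, with 2 higher at an unadjusted p below 0.05 and, by a regularised t-statistic modelled on cyberT (the cyberT-like test), 3 higher and 1 lower. Markers of Kupffer cells and other macrophages moved with the diet. By limma 11 of 12 were higher and 0 lower, where 7.01% of all genes were higher and 5.08% lower (Benjamini-Hochberg adjusted p below 0.05). Their summed intensities were 14063 to 14418 on the lovastatin/ezetimibe arrays against 10682 to 11370 on the cholesterol arrays, and no marker was at 0. The part of this shift in the changes of the 6 genes was not tested. Values are the linear intensities of probe sets, and changes are lovastatin/ezetimibe minus cholesterol on the log2(intensity + 1) scale with their standard error (SE) from limma, n = 3 arrays per diet. Signal depends on the probes as well as the transcript, so intensities of different genes are not set against each other.

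Each of the 6 genes was lower on every lovastatin/ezetimibe array than on any cholesterol array, a pattern that 14.7% of all genes showed in this direction. The contrast that chose the genes favours that pattern, so nothing is read from the count. A change of 2-fold or more downwards was seen for 29 genes, 0.145% of the table, without regard to a test. In the order of change from the lowest, Moxd1 was in place 3, Slc13a2 in place 8, Obp2a in place 15, Capn8 in place 17, Serpina12 in place 19 and Upp2 in place 26. The genes next to the 2-fold limit were Fitm1 (log2 -1.03) and the clock output factor Dbp (-1.01) just inside it, and Ces4a (-0.999) and Carmil1 (-0.99) just outside. The median change of the 6 genes was log2 -1.22, beside 0.00 (-0.00489) for all genes.

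**Figure D1:**
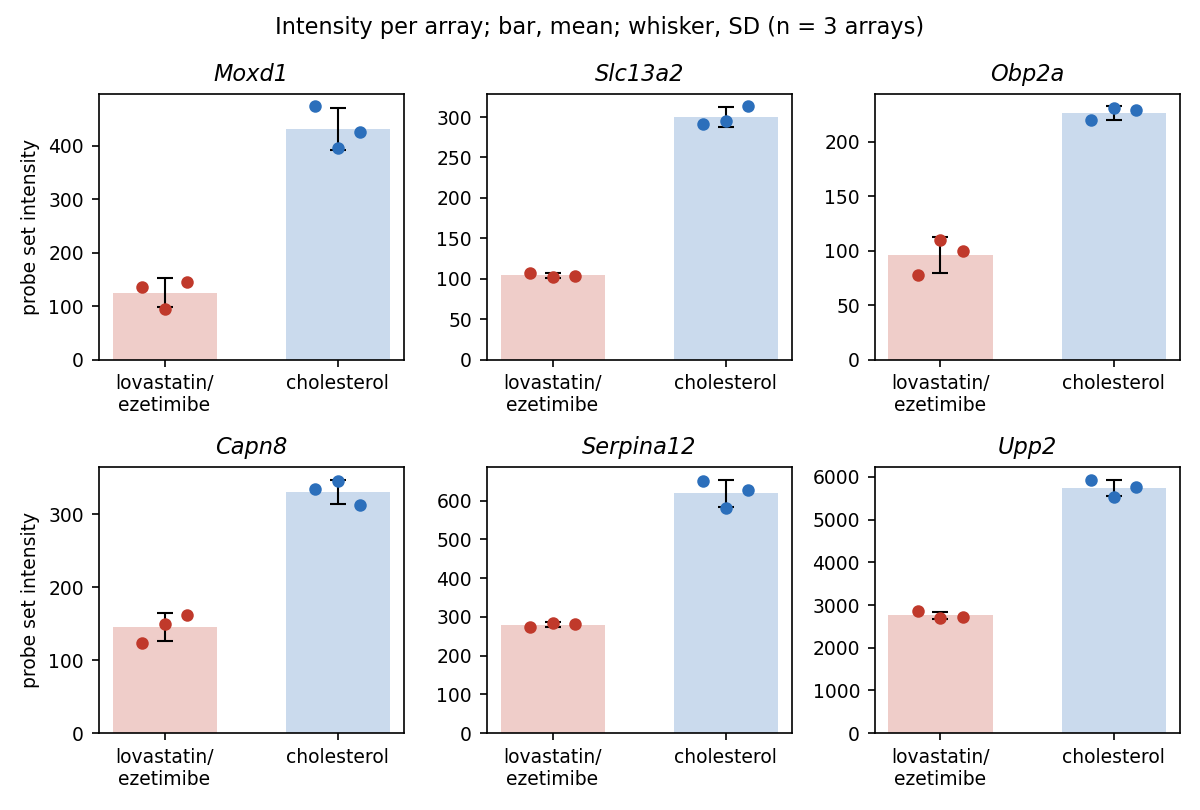
Probe set intensity (vertical axis, linear, from 0) of each of the 6 genes on the 3 lovastatin/ezetimibe arrays (left, red) and the 3 cholesterol arrays (right, blue); points are arrays, bars are means and whiskers are SDs (n = 3). In each panel the highest lovastatin/ezetimibe point lies below the lowest cholesterol point, for Moxd1 at 146 against 396 and for Upp2 at 2859 against 5536.

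**Figure D2:**
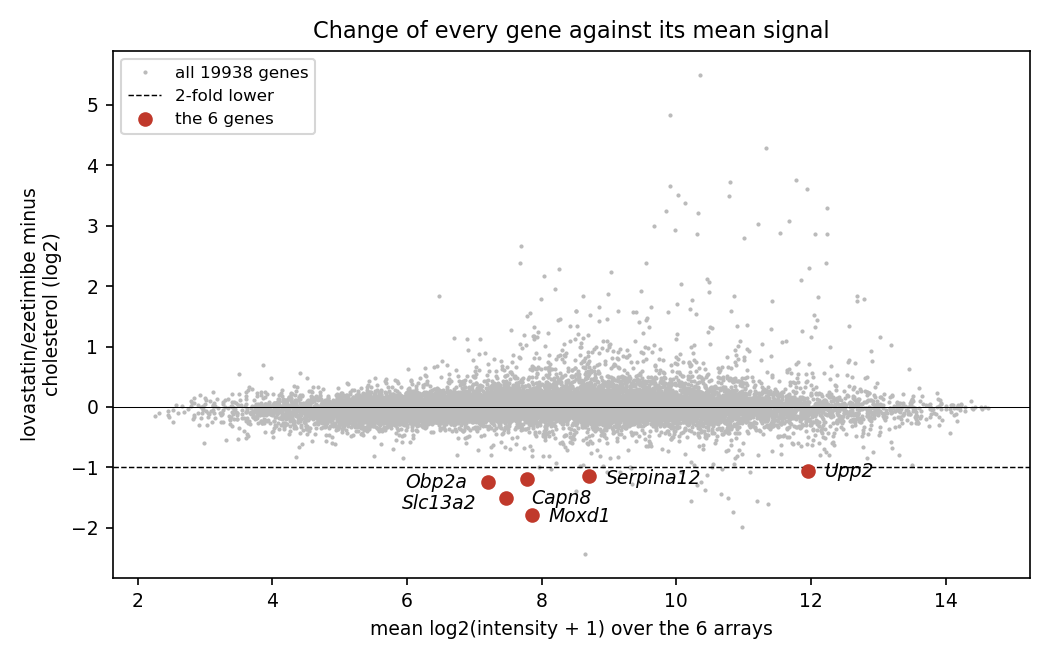
Change (vertical axis, lovastatin/ezetimibe minus cholesterol, log2) against the mean log2(intensity + 1) over the 6 arrays (horizontal axis) for 19938 genes in grey, with the 6 genes in red and a dashed line at 2-fold lower. The red points lie between -1.05 for Upp2 and -1.80 for Moxd1, and Upp2 stands to the right of the other 5.

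Moxd1 encodes a copper-dependent monooxygenase related to dopamine beta-hydroxylase. It resides in the endoplasmic reticulum, and its substrate is not established. The gene lies on chromosome 10 at chr10:24223517-24302783 (RefSeq, GRCm38.p6). Its intensities were 135, 95.5 and 146 on the lovastatin/ezetimibe arrays, against 474, 396 and 426 on the cholesterol arrays. LE2 was the lowest array and CH1 the highest, and the diets were far apart: the highest lovastatin/ezetimibe value lay below the lowest cholesterol value by a factor of 2.71. Expression was 3.47-fold lower with lovastatin/ezetimibe (log2 -1.80, SE 0.15). The mean of the lovastatin/ezetimibe arrays was 29.0% of the mean of the cholesterol arrays. This was the least even of the 6 genes among arrays of 1 diet, with an SD of 0.32 in the lovastatin/ezetimibe group and 0.13 in the cholesterol group. Without LE2 the change was -1.61, and over all ways of leaving out 1 array it lay between -1.91 and -1.61.

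Slc13a2 encodes a sodium-coupled carrier that takes up succinate and other dicarboxylates, as well as citrate. It is best known from the brush border of kidney tubules and small intestine. The gene lies on chromosome 11 at chr11:78397276-78422281. Intensities were 107, 102 and 103 on the lovastatin/ezetimibe arrays and 291, 295 and 313 on the cholesterol arrays. The arrays within each diet lay close together, and the highest lovastatin/ezetimibe array lay below the lowest cholesterol array by a factor of 2.71. The gene was 2.86-fold lower (log2 -1.52, SE 0.05), with SDs of 0.04 in the lovastatin/ezetimibe group and 0.06 in the cholesterol group. Leaving out 1 array moved the change between -1.54 and -1.48. Because the carrier is known from kidney and gut, the markers of those tissues were read beside it. By limma 0 of 7 kidney markers and 0 of 12 markers of gastric and intestinal mucosa passed the test, and at an unadjusted p below 0.05 the counts were 0 and 1 (lower). The test by the cyberT-like test also called 0 in both. Summed kidney markers were 788 to 901 on the lovastatin/ezetimibe arrays and 802 to 907 on the cholesterol arrays.

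Obp2a encodes a lipocalin, a small secreted protein whose barrel-shaped pocket carries hydrophobic molecules, named for odorant binding in the nose. The gene lies on chromosome 2 at chr2:25697577-25703326. On the lovastatin/ezetimibe arrays it had intensities of 77.7, 109.6 and 100.05, and on the cholesterol arrays 219.6, 231 and 229. LE1 stood below the other lovastatin/ezetimibe arrays, while the cholesterol arrays were nearly level. The gene was 2.37-fold lower (log2 -1.25, SE 0.12). Its SD was 0.25 with lovastatin/ezetimibe and 0.04 with cholesterol, so nearly all of its spread came from the 3 lovastatin/ezetimibe arrays. Without LE1 the change was -1.11.

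Capn8 encodes a calpain, a calcium-dependent protease of the cytosol, known from the mucus cells of the stomach, where it works together with Capn9. It lies on chromosome 1 at chr1:182564749-182634456. The lovastatin/ezetimibe arrays gave 124, 149.9 and 162, and the cholesterol arrays 334, 345 and 312. LE1 was again the lowest array, and the highest lovastatin/ezetimibe value was below the lowest cholesterol value by a factor of 1.93. The change was log2 -1.19 (SE 0.10), or 2.28-fold lower. The SD was 0.20 in the lovastatin/ezetimibe group and 0.07 in the cholesterol group, and leaving out 1 array gave changes of -1.27 to -1.08. The 12 stomach and gut markers summed to 1333 to 1424 on the lovastatin/ezetimibe arrays and 1295 to 1522 on the cholesterol arrays, ranges that overlapped.

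Serpina12 encodes vaspin, a secreted serine protease inhibitor known as an adipokine, a hormone-like product of fat tissue, that inhibits the protease kallikrein 7. The gene lies on chromosome 12 at chr12:104028769-104044443. Its intensities were 273, 285 and 282 with lovastatin/ezetimibe and 650.2, 582 and 627 with cholesterol. The lovastatin/ezetimibe arrays were nearly level (SD 0.03) and the cholesterol arrays a little more spread (SD 0.08). The gene was 2.21-fold lower (log2 -1.14, SE 0.06), and -1.19 to -1.11 when 1 array was left out. Of 6 markers of adipose tissue 0 passed limma's test, with 1 higher and 1 lower at an unadjusted p below 0.05 and 1 lower by the cyberT-like test. These markers summed to 806 to 843 on the lovastatin/ezetimibe arrays and 809 to 838 on the cholesterol arrays.

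Upp2 encodes a uridine phosphorylase, which splits uridine into uracil and ribose 1-phosphate. In mice it is an enzyme of the liver, and its gene is known there to respond to LXR and other lipid-sensing nuclear receptors. It lies on chromosome 2 at chr2:58566317-58795846. Intensities were 2859, 2703 and 2728 on the lovastatin/ezetimibe arrays, against 5928, 5536 and 5752 on the cholesterol arrays. The change was the smallest of the 6 and also among the most even, 2.08-fold lower (log2 -1.05, SE 0.05) with SDs of 0.04 with lovastatin/ezetimibe and 0.05 with cholesterol. Leaving out 1 array gave changes of -1.08 to -1.03.

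The spread within a diet, which the rule did not use, divided the 6 genes. The SD pooled over both diets was 0.25 for Moxd1, 0.18 for Obp2a and 0.15 for Capn8, at percentiles 98.4, 93.5 and 87.1 of all genes. It was 0.06 for Serpina12, 0.05 for Slc13a2 and 0.05 for Upp2, at percentiles 31.8, 18.5 and 17.7, where the median gene had 0.08. The uneven 3 were wider in the lovastatin/ezetimibe group, with SDs 2.46, 6.49 and 2.67 times those of the cholesterol group for Moxd1, Obp2a and Capn8. On LE1, LE2 and LE3 the deviations from the diet mean on the log2 scale were 0.13, -0.37 and 0.24 for Moxd1, -0.28, 0.21 and 0.08 for Obp2a and -0.22, 0.06 and 0.16 for Capn8. Obp2a and Capn8 thus lay on the same side of their means on each of these arrays, Moxd1 lay on the other side on LE1 and LE2, and all of these genes lay above their means on LE3. No detection call accompanied the intensities, so whether the low values lay near background is not known here. On the lovastatin/ezetimibe arrays kidney markers read 55.2 (Kap) to 236 (Aqp2), and stomach and gut markers 32.6 (Sis) to 215 (Tff1). Both ranges held the values of Obp2a, Slc13a2, Moxd1 and Capn8 on these arrays, while those of Serpina12 and Upp2 lay above. On the cholesterol arrays Aqp2 read 217 to 283 and Tff1 213 to 250. Obp2a, at 219.6 to 231, lay within both ranges there too, and the other genes lay above them. Where values lie near background, a fold change can understate the change, and whether that holds here was not tested.

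**Figure D3:**
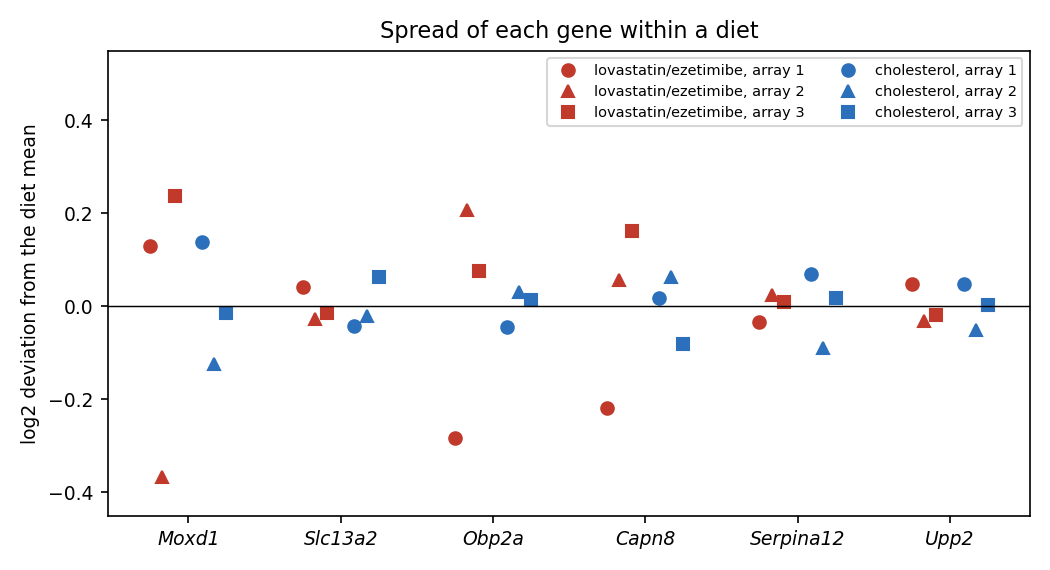
Deviation of each array from its own diet's mean (vertical axis, log2) for the 6 genes; red symbols are lovastatin/ezetimibe arrays, blue symbols cholesterol arrays, and symbol shape gives the array number. The red symbols of Moxd1 spread from -0.37 to 0.24 and those of Obp2a from -0.28 to 0.21, while those of Slc13a2 stay between -0.03 and 0.04.

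The promoters of the 6 genes, which were chosen for being lower, were read for short motifs. RefSeq promoters were matched for all 6 by gene symbol. The table holds 7 starts for them, since it lists a pair for Upp2, and the 250 bases before each listed start were searched on both strands. The windows of Obp2a, Capn8 and Upp2 lie inside the gene spans given above, and that of Slc13a2 lies partly inside, so these genes have annotated sequence further upstream that was not searched. The sequences shown are those of Moxd1, for its STAT5-type motif, and of Obp2a and the second Upp2 start, for the nuclear receptor core. Bases in capitals belong to any motif searched, 5′ to 3′ on the gene's strand, at chr10:24223267-24223516 (plus strand), chr2:25699824-25700073 (plus) and chr2:58754934-58755183 (plus) in GRCm38.p6.
Moxd1: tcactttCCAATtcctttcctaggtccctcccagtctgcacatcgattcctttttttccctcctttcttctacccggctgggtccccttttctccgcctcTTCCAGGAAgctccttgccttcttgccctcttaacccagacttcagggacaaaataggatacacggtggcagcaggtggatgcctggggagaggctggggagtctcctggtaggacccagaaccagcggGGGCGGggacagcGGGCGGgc
Obp2a: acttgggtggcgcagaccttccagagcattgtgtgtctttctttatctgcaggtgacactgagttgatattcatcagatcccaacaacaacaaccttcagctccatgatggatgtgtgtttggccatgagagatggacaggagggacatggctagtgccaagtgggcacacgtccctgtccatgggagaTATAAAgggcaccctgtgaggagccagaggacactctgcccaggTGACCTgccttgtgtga
Upp2, second start: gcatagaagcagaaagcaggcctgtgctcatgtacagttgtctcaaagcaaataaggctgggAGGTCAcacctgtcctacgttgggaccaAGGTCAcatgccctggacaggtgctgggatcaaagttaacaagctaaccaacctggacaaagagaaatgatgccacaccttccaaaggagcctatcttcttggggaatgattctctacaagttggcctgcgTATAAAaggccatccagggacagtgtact

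The Moxd1 window holds TTCNNNGAA, the spaced palindrome that STAT5 factors bind, at positions -150 to -142 counted from the start, and it was absent from the windows of the other 5 genes. These letters stand in 7.02% of the 32851 promoter windows of the table. The core AGGTCA, which many nuclear receptors bind, stands at -17 to -12 in Obp2a, on the minus strand, and at -188 to -183 and -160 to -155 upstream of the second Upp2 start, against 14.0% of all windows with at least 1. None of the 7 windows held the consensus LXR arrangement, a pair of AGGTCA in the same direction 4 bases apart, which was found in 5 windows of the table. TATAAA stands in Obp2a (-61 to -56), in Slc13a2 on the minus strand (-29 to -24) and before the second Upp2 start (-29 to -24), against 12.4% of windows.

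The remaining motifs were more scattered. CCAAT was present for Moxd1, Serpina12 and the first Upp2 start (33.9% of windows), and so was GGGCGG (32.7%). TTGCNNAA, letters found in sites of C/EBP factors, occurred for Serpina12 (9.56%), and GTTAAT, part of the HNF1 motif, before the first Upp2 start (6.43%). CACGTG, the E-box of the circadian clock, was found in 0 of the 7 windows and 6.02% of all. The first Upp2 start lies in GC-rich sequence (73.2% GC with 29 CG pairs) and the second does not (49.2% and 2), where the median window had 52.4% and 6. Of the 9 motifs the Capn8 window held none. A match is a match of letters and no measured site, and the array does not say which start of a gene was used.

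The genes whose profile over the 6 arrays came nearest to each member were found by the root mean square (RMS) difference of log2 values, each centred on its own mean. For Moxd1 they were the carboxylesterase Ces1e (0.17), the carbonic anhydrase Car14 (0.19) and the arrestin-domain gene Arrdc3 (0.20). Slc13a2 was followed most closely by Srebf1, the sterol- and insulin-regulated transcription factor of fatty acid synthesis (0.07), by Ces1b (0.07) and by Car14 (0.09). Ces1 genes have near-identical copies that may share probes, so which copy was measured is uncertain.

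Obp2a was nearest to Capn8 (0.09), itself one of the 6, then to Socs2, an inhibitor of growth hormone signalling (0.11), and to the hydroxysteroid dehydrogenase Hsd3b2 (0.11). Socs2 also led for Capn8 (0.06), before the gene 9130409I23Rik (0.07) and Ppm1k, a phosphatase that activates branched-chain amino acid breakdown (0.08). Serpina12 was nearest to the carbonic anhydrase Car1 (0.05), the male-biased Hsd3b5 (0.06) and Upp2 (0.06). Upp2 was nearest to Fitm1, which takes part in forming lipid droplets (0.03), Car1 (0.04) and Ces4a (0.04). With 6 arrays in 2 diets these distances mostly reflect genes with a diet difference of like size, and the larger distances of Moxd1 go with its wider spread.

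**Figure D4:**
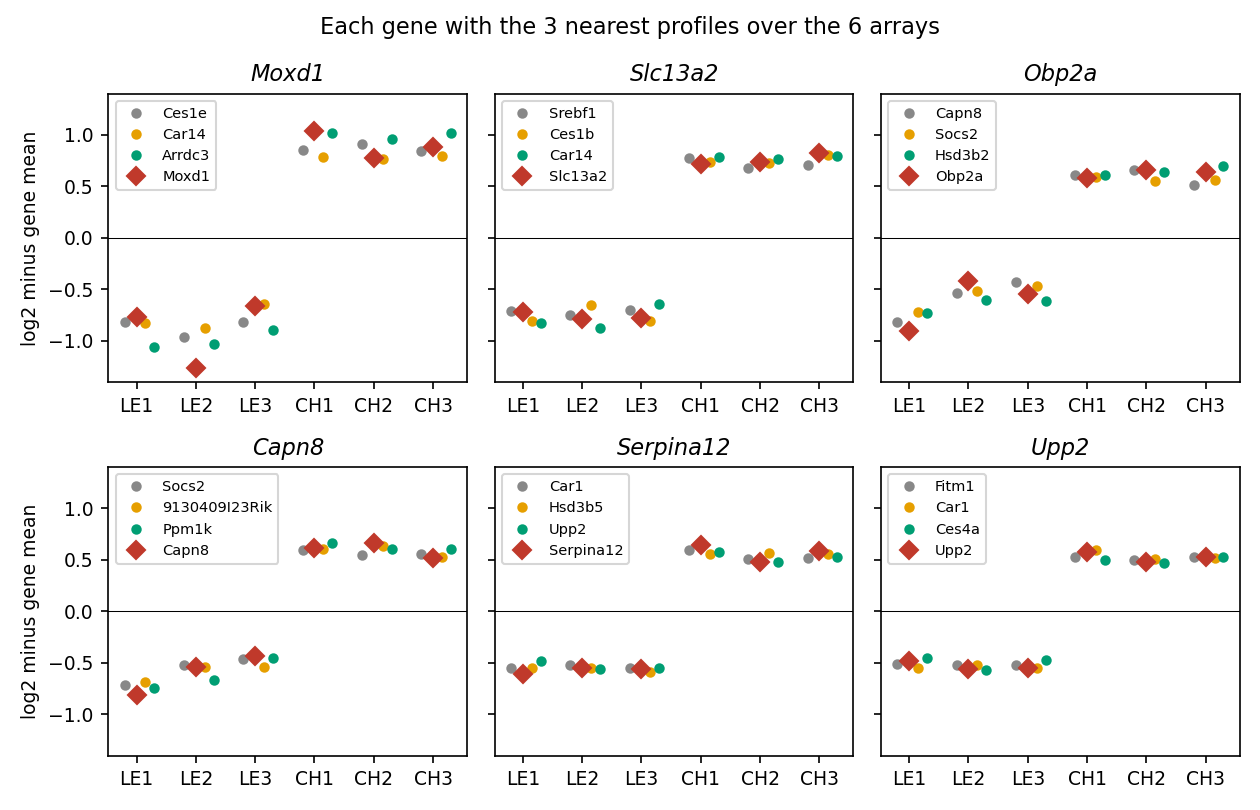
Log2 value minus the gene's own mean over the 6 arrays (vertical axis) by array (horizontal axis, lovastatin/ezetimibe LE1 to LE3, then cholesterol CH1 to CH3) for each of the 6 genes (red diamonds) and its 3 nearest genes (coloured circles, shifted sideways for clarity). All 4 genes of a panel lie below 0 on LE1 to LE3 and above 0 on CH1 to CH3, and the Moxd1 diamond on LE2 stands apart from its neighbours.

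The relatives of each gene were then tested in the fit over all genes, where 12.1% passed, 7.01% higher and 5.08% lower (limma, Benjamini-Hochberg adjusted p below 0.05). The number of lower genes over the whole table was 1012, and it was 525 without LE2, 551 without CH1 and 612 without CH3. Counts below leave out the 6 genes themselves. Across the 6 families and pathways that follow, between 0 and 4 relatives were lower.

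Copper monooxygenases other than Moxd1 did not pass: 0 of 3 were called by limma or by the cyberT-like test, and 1 was higher at an unadjusted p below 0.05. That was Dbh, which makes noradrenaline, at 0.15 (SE 0.07, adjusted p = 0.197, 0.142 to 0.439 over the alternatives). Its intensities were 55.8, 54.4 and 51.1 with lovastatin/ezetimibe and 49.4, 50.8 and 44.5 with cholesterol. Moxd2, the nearest namesake of Moxd1 and named here after its value was seen, was at 0.05 (adjusted p = 0.743). It was dim, at 49.3, 43.3 and 49.4 with lovastatin/ezetimibe and 44.2, 46.0 and 47.2 with cholesterol. Without a detection call, whether Moxd2 transcript was measured is not known, so no lack of response is read from it.

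Of 23 other lipocalins, 2 rose (8.70%), 4 fell (17.4%) and 17 did not pass (median change -0.03). Over all genes 7.01% were higher and 5.08% lower. The lower lipocalins were Orm3, Mup21, Mup3 and Mup5, with Mup3 and Mup5 named after their values were seen. Mup3 and Mup21 also count among the male-biased genes below. Lcn2, an iron-siderophore carrier of the acute phase, rose 1.99-fold (log2 0.99, SE 0.06, adjusted p = 3.81e-05), and its intensities were 690.1, 737 and 743 against 354, 347 and 388. The pheromone carrier Mup21 fell by 1.08 (SE 0.10, adjusted p = 0.000449) and the acute-phase lipocalin Orm3 fell by 0.58 (SE 0.05, adjusted p = 0.000239). Mup genes have near-identical copies, so signal from other copies is possible there. Obp2b, named after its value was seen, was at -0.03 (adjusted p = 0.849). Its intensities were 60.7, 57.2 and 59.3 with lovastatin/ezetimibe and 60.5, 63.5 and 56.7 with cholesterol. At such dim values, whether Obp2b transcript was measured is not known, and no lack of response is read from it.

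Among the 14 other calpain genes 12 did not pass, 1 rose and 1 fell (median change 0.01). Capn10 rose 1.99-fold (log2 0.99, SE 0.10, adjusted p = 0.000452), with 581, 606 and 721 on the lovastatin/ezetimibe arrays and 296, 349.6 and 311 on the cholesterol arrays. Capn11 fell by 0.35 (SE 0.09, adjusted p = 0.0365), and it did not pass with the replicate block or when LE2, LE3 or any of the cholesterol arrays was omitted (0.0123 to 0.114 over the alternatives). Capn9, the stomach partner of Capn8 and named after its value was seen, was at 0.03 (adjusted p = 0.904). It too was dim, at 85.8, 76.2 and 86.4 on the lovastatin/ezetimibe arrays and 78.5, 94.6 and 71.2 on the cholesterol arrays. Whether Capn9 transcript was measured is not known, so no lack of response is read from it.

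Of 13 other clade A serpins, the family of alpha-1-antitrypsin and the hormone-binding globulins, 3 were higher, 2 lower and 8 did not pass (median -0.05). Serpina9 fell by 0.80 (SE 0.08, adjusted p = 0.000714), with 80.4, 84.99 and 75.2 on the lovastatin/ezetimibe arrays and 136, 157 and 128 on the cholesterol arrays. Serpina11 fell by 0.44 (SE 0.05, adjusted p = 0.000953). Serpina7, the thyroxine-binding globulin, rose by 0.43 (SE 0.09, adjusted p = 0.0202), which did not pass without LE2, LE3, CH1 or CH2 (7.71e-05 to 0.0843 over the alternatives). The number of higher serpins was 0 without LE2, LE3, CH1 or CH2 and 1 without CH3. Of the 24 clade A genes listed, 10 were not measured on a probe set of their own, mainly the Serpina1 and Serpina3 copies.

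In pyrimidine nucleoside metabolism, around Upp2, 18 of 29 genes did not pass, 9 rose and 2 fell (median 0.04). Ctps2, which makes cytidine triphosphate, rose 2.28-fold (log2 1.19, SE 0.06, adjusted p = 1.35e-05) and Nt5e, an ectonucleotidase, 1.41-fold (log2 0.50, SE 0.08, adjusted p = 0.00565). Tk1, the thymidine kinase of dividing cells, fell by 1.09 (SE 0.09, adjusted p = 0.000222), to 438, 399 and 351 with lovastatin/ezetimibe against 843, 773 and 905 with cholesterol. Dpys, named after its value was seen, was the other lower gene (-0.32, adjusted p = 0.00743), an enzyme that hydrolyses dihydrouracil. Dpyd, which reduces uracil to dihydrouracil and was named on the same terms, was at -0.14 (adjusted p = 0.103). Upp1, the other uridine phosphorylase, also named after its value was seen, was at 0.03 (adjusted p = 0.816).

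Genes that carry or use carboxylates and sulphate, around Slc13a2, rose in 9 of 19 cases, fell in 2 and did not pass in 8 (median 0.15). The lower count was 1 without LE2, CH1 or CH2. Acly, which cleaves citrate to acetyl-CoA, rose 4.93-fold (log2 2.30, SE 0.05, adjusted p = 9.57e-08), the sulphate transporter Slc26a2 2.71-fold (1.44, SE 0.10, adjusted p = 8.67e-05) and the malic enzyme Me1 2.49-fold (1.32, SE 0.05, adjusted p = 2.32e-06). The citrate carrier Slc13a5 was at -0.01 (adjusted p = 0.963) and the dicarboxylate carrier Slc13a3 at 0.20 (adjusted p = 0.0447), both named after their values were seen. Slc13a3 did not pass with the replicate block, after centring on array medians or when any 1 of the 6 arrays was omitted (0.00276 to 0.143 over the alternatives). Sucnr1, the succinate receptor, named on the same terms, fell by 0.53 (adjusted p = 0.000394).

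**Figure D5:**
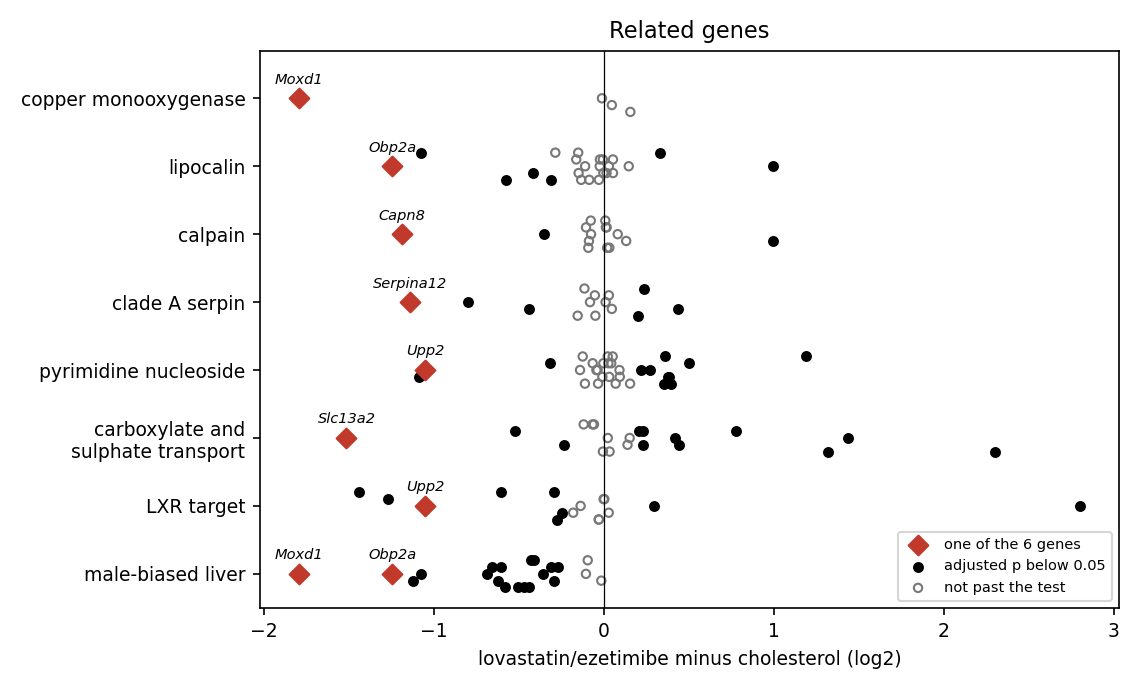
Change (horizontal axis, lovastatin/ezetimibe minus cholesterol, log2) of every measured gene of 8 lists (rows; points shifted up or down for clarity); red diamonds are the 6 genes, filled circles genes with an adjusted p below 0.05, open circles genes not past the test. Filled circles lie on both sides of 0 in every list but the copper monooxygenases, which have none, and the male-biased liver genes, whose 16 filled circles all lie below 0.

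Upp2 was listed with the LXR targets as well. Of the 15 others, 2 rose, 6 fell and 7 did not pass, with a median of -0.14. Srebf1 fell by 1.44 (SE 0.05, adjusted p = 1.35e-06) and the lipoprotein lipase Lpl fell by 1.27 (SE 0.06, adjusted p = 7.34e-06), each by more than Upp2, whereas the phospholipid transfer protein Pltp rose 6.97-fold (log2 2.80, SE 0.05, adjusted p = 4.89e-08). Over the alternatives 5 to 8 of these genes were lower and 2 higher.

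Moxd1 and Obp2a were listed with the male-biased liver genes. Of the 19 others measured, 16 were lower, 3 did not pass and 0 were higher by limma. At limma's unadjusted p below 0.05, 16 were lower and 0 higher, and by the cyberT-like test 18 were lower and 0 higher. The median change was -0.44, against -0.00489 for all genes, and over the alternatives 14 to 18 were lower. Hsd3b5, a hydroxysteroid dehydrogenase, fell by 1.12 (SE 0.05, adjusted p = 3.20e-06), to 3767, 3785 and 3684 with lovastatin/ezetimibe against 8131, 8210.2 and 8157 with cholesterol. Mup21, described above, and the glucuronosyltransferase Ugt2b1 (-0.69, SE 0.06, adjusted p = 0.000171) followed. Hsd3b, Mup and Ugt2b genes have near-identical copies that may share probes. The list was drawn up with an earlier result of its direction in these data known, so its count is no independent evidence of that direction.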

How the data were processed

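Liver total RNA of both diets was hybridised to Affymetrix Mouse Gene 1.0 ST arrays (6 arrays, 3 for each diet). The authors deposited linear probe set intensities. Per the labels' protocols, Trizol was used for extraction. Partek Genomics Suite and cyberT served for differential expression, per the series' design text. How background, normalisation and summary were handled is not given in the sources used here. Array medians were 158.1 to 162.9, and at most 28 of 35556 probe sets had the same value on a pair of arrays.

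The platform annotation gave 21789 probe sets 1 gene symbol, 1621 several and 12146 none. Genes were measured on single-gene probe sets, using for 999 genes with more than 1 the one with the highest mean, which left 19938 genes. By gene identifier 21698 of these probe sets matched RefSeq (GRCm38.p6), and 0 symbols needed an update.

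Values were taken as log2(intensity + 1) and the diets compared with limma 3.58.1 (lmFit and eBayes, two-sided) in R 4.3.3, with Benjamini-Hochberg adjustment over all 19938 genes at 0.05. Summaries used Python 3.11.15, pandas 2.3.3, numpy 2.4.6 and matplotlib 3.10.9. The limma fit, its forms with the trend and with the block, and the cyberT-like test were first checked on data simulated with known changes. The simulated noise was drawn independently for each gene and array, so effects shared by an array were not covered. No accuracy for small changes is read from that check. With 3 arrays per diet the smallest p of an exact permutation test is 0.1, and precision is limited by that number.

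The members and the 8 lists were chosen with earlier results of these data known. Named genes are the 6, up to 3 others past the test in each list by size of change (or the 1 with the smallest p), the 3 nearest profiles of each of the 6, the genes next to the 2-fold limit, and single tissue markers. Other genes are said to have been named after their values were seen. Of the marker lists not described in the results, by limma 0 of 5 cholangiocyte, 0 of 7 endothelial and 0 of 8 exocrine pancreas markers passed (at an unadjusted p below 0.05, 1, 2 and 0, all lower, and the same by the cyberT-like test), and 1 of 7 stellate cell markers was lower. Replicate numbers did not pair the arrays, so the comparison has no block. The alternatives were a replicate block, quantile normalisation, subtraction of each array's median, omission of the dimmest 33.3% of genes, averaging over a gene's probe sets, an intensity trend with robust prior in limma, a cyberT-like test with window averaging of SDs (101 genes, prior weight 10; the study's settings are not stated), pseudocounts of 16 and none, and leaving out each array.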

Additional observations from a re-analysis of the deposited data

How the results depend on the processing

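Over 13 alternatives for each of the 6 genes, 78 values in all, every change remained at least 2-fold lower. All alternatives reuse the arrays by which the genes were chosen, so this is no independent support for the changes. Of the 78 values, 77 lay within 1 SD of the value given above, the exception being Slc13a2 at a pseudocount of 16 (-1.39). The replicate block, omission of the dimmest 33.3% of genes and averaging over probe sets cannot move these estimates, so their matches were fixed in advance. Leaving out 1 array moved Slc13a2 between -1.54 and -1.48. The number of lower genes over the whole table was 657 with the replicate block, 1560 with the intensity trend and robust prior and 1678 with the cyberT-like test, and 525 to 893 when 1 array was left out; the cause was not tested. Higher clade A serpins numbered 1 with the replicate block and 0 to 2 without 1 array, and lower ones 1 without the dimmest 33.3% of genes, 4 with the trend and 4 by the cyberT-like test. The lower calpain, Capn11, was not called with the replicate block (0 lower calpains). Of the fits without 1 array, it was called only in the fit without LE1. Capn11 and the lower serpin Serpina9 were among the dimmest 33.3% and so were not tested where those were left out, which gave 0 lower calpains. Lower carboxylate and sulphate genes numbered 1 with the replicate block and 1 to 2 without 1 array. Of 240 list counts under the alternatives, 220 were within 1.5 times the count given. Among all calls 58.0% were higher genes, and 48.4% after centring. Same-numbered arrays did not deviate together (correlations of -0.02, -0.10 and 0.16), and 1 of the 3 lovastatin/ezetimibe arrays, LE3, correlated best with its own number. The deposited intensities have no detection call, which limits what can be said of the low values of Obp2a, Slc13a2, Moxd1 and Capn8. Their mean levels over both diets lay at percentiles 41.5, 47.0, 53.9 and 52.6 of all genes. The lack of a detection call also limits the dim relatives Obp2b, Moxd2 and Capn9, which were among the dimmest 33.3%.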
